A study of Rattus norvegicus with 45 samples.

Results

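Brain-derived neurotrophic factor (Bdnf) and neurotrophin-3 (Ntf3), with the receptors TrkB (Ntrk2), TrkC (Ntrk3), p75NTR (Ngfr) and sortilin (Sort1), were followed in the brain of rats given an antipsychotic drug. These 6 genes (of 14217 with a probe set of their own) are read on the rat genome array by 12 probe sets of 31099, which were all of those annotated with one of these symbols. A probe set is a group of short probes that together read 1 transcript or several transcripts of a gene. Of the 12, 1 reads Ntf3, 1 Ntrk3 and 1 Ngfr, 2 read Bdnf, 2 read Sort1 and 5 read Ntrk2.

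The samples came from 15 male Sprague-Dawley rats, 2 months old, 5 per treatment. Rats of the vehicle group received dilute acetic acid, the haloperidol group 0.25 mg/kg/d haloperidol and the risperidone group 5 mg/kg/d risperidone, in each case for 21 days from a pump under the skin. Both drugs are antagonists of the dopamine D2 receptor, and risperidone also acts on serotonin receptors. RNA from 3 regions of each rat (frontal cortex, hippocampus and striatum) was hybridized to separate arrays, 45 in all. The comparisons asked how levels differ between regions, what each drug changes in a region, and whether that change differs from region to region.

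Neurotrophins are secreted as precursors and stored in dense-core vesicles of neurons. The mature factors activate Trk receptor tyrosine kinases, BDNF acting on TrkB and neurotrophin-3 mainly on TrkC, and lead to survival, growth of processes and strengthening of synapses. The precursors bind p75NTR together with sortilin. Projection neurons of the cortex make BDNF and carry it to the striatum along their axons, while striatal neurons themselves make little Bdnf mRNA and express TrkB. Bdnf has several promoters, of which some respond to neuronal activity through the transcription factor CREB. TrkB is made in a full-length form with a kinase and in truncated forms without one, which are abundant in astrocytes.

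The members lie on 6 chromosomes of the rat genome (RefSeq annotation, build GRCr8, used here for positions only). Bdnf is on chromosome 3 from 116619633 to 116670212, Ntf3 on chromosome 4 from 160601161 to 160670623 and Ntrk2 on chromosome 17 from 5560558 to 5875899. Ntrk3 is on chromosome 1 from 141526192 to 141913575, Ngfr on chromosome 10 from 81012077 to 81030305 and Sort1 on chromosome 2 from 198609466 to 198690481. The RefSeq promoter table matched 3 of the 6 genes, with 6 windows for Bdnf, 3 for Ntf3 and 1 for Sort1. Each window holds 300 bases around a transcript start. The half-site of the cAMP response element, to which CREB binds (TGACG, or CGTCA on the other strand), was in 1 of these 10 windows, a Bdnf start, and in 21.2% of the 33469 windows of that length in the table. The full palindrome TGACGTCA, which contains both half-sites, was in none of the 10 and in 1.83% of all windows. The Bdnf half-site begins 35 bases before the transcript start. It is shown because Bdnf is the member whose levels varied most across the arrays, and the capitals mark the half-site in the 80 bases before that start (plus strand, chr3:116637778-116637857):
Bdnf: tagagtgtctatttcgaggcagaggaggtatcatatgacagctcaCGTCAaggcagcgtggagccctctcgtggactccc
The arrays do not tell the Bdnf promoters apart, and the match is a description of the sequence only.

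Intensities are given on the log2 scale, on which 1 unit is a doubling. In the deposited values the arrays of a region were alike and hippocampus stood apart, for a reason that was not tested. The median probe set was 0.25 higher in hippocampus than in frontal cortex. It was 0.06 lower in striatum than in frontal cortex and 0.30 lower in striatum than in hippocampus. Levels were therefore compared between regions after quantile normalization across all 45 arrays, and drugs were compared within a region on the deposited values. Tests were fitted with limma on 18609 probe sets whose mean over all arrays reached the 40th percentile (5.88), with the rat as a random block. A probe set was called at a Benjamini-Hochberg adjusted p under 0.05 with a change of at least 1.2-fold. Of the member probe sets, 9 passed this filter on the mean. Ngfr (mean 4.30), Bdnf 1368678_at (5.85) and Ntrk2 1370652_at (5.51) were below it, and their values are given with p-values from a fit of all probe sets without the filter. The table has no detection calls, so whether a value near 4 lies above background is not known, and a fold against such a level depends on the background correction. Defining markers set striatum apart. The mean of 8 measured striatal projection neuron markers was between 11.21 and 12.21 in striatum and between 7.32 and 8.71 elsewhere, and the mean of 7 pyramidal neuron markers was between 9.23 and 9.64 in frontal cortex and hippocampus and between 6.48 and 8.38 in striatum. The mean of 5 dentate granule cell markers was 6.72 to 6.99 in hippocampus, above frontal cortex (6.30 to 6.50) but overlapping with striatum (6.63 to 6.84). Of these markers, Prox1 alone set hippocampus apart (median 9.21, against 6.46 in frontal cortex and 6.82 in striatum). The medians of Tdo2, Dsp and Calb1 were lower in hippocampus than in frontal cortex, and that of Pdzd2 was 5.40 against 5.27. Frontal cortex arrays of risperidone replicates 2 and 5 were high in olfactory bulb markers (mean of 6 genes 8.25 and 7.75, against 5.62 to 5.79 in vehicle rats), with haloperidol replicate 5 next at 6.94. The frontal cortex array of risperidone replicate 1 was high in striatal projection neuron markers (8.71, against 7.44 to 8.09 on the other frontal cortex arrays), and the striatum array of risperidone replicate 3 was high in pyramidal neuron markers and lowest in striatal projection neuron markers (11.21).

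Bdnf was highest in hippocampus, lower in frontal cortex and near the bottom of the scale in striatum. In the 5 vehicle rats, Bdnf 1368677_at was at 9.45, 9.63, 9.54, 9.76 and 9.47 in hippocampus. In frontal cortex the values were 8.85, 8.59, 8.97, 8.70 and 8.75. Striatum had 4.05, 5.46, 3.76, 4.99 and 4.25, so the 3 regions did not overlap and striatum had the widest spread. Of all tested probe sets, 19.2% were higher without overlap in hippocampus than in frontal cortex. In striatum 23.1% were lower without overlap than in frontal cortex and 24.9% than in hippocampus. The difference of hippocampus to frontal cortex was 0.80 (standard error 0.31, 1.74-fold, adjusted p = 0.0285, n = 5 rats). This call was lost without vehicle replicate 2, 4 or 5 and with the rat as a fixed block (adjusted p up to 0.0888 and down to 1.78e-05 over all alternatives), while the difference stayed between 0.73 and 1.03. The fit takes its standard error from all 3 regions. The SDs of the vehicle rats were 0.13 in hippocampus, 0.14 in frontal cortex and 0.70 in striatum. The standard error is thus too large for hippocampus against frontal cortex and too small for the striatum differences. Striatum was lower, with a difference of -4.27 to frontal cortex (standard error 0.31, 19.3-fold, adjusted p = 1.46e-15) and of -5.07 to hippocampus (33.5-fold, adjusted p = 6.23e-18). Its mean in vehicle rats (4.50) was below the level of the filter, which the probe set passed through hippocampus and frontal cortex. Both striatum differences are therefore given as a description. In a bulk sample, fewer cells that make a transcript and less transcript per cell cannot be told apart. Over all 15 rats, Bdnf 1368677_at ran from 9.06 to 9.76 in hippocampus, from 8.18 to 8.97 in frontal cortex and from 3.76 to 7.02 in striatum.

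The second Bdnf probe set, 1368678_at, had the same order of regions at a lower intensity. Means in vehicle rats were 6.99 in hippocampus, 6.40 in frontal cortex and 4.14 in striatum, with no overlap between the regions. The shares over all tested probe sets are those given for 1368677_at. Without the filter it was higher in hippocampus than in frontal cortex by 0.59 (adjusted p = 1.27e-09 from limma) and lower in striatum, with a difference of -2.26 to frontal cortex (adjusted p = 9.90e-28). In striatum its 15 values lay between 4.07 and 4.34, a far narrower range than that of 1368677_at on the same arrays.

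Ntf3 was highest in hippocampus as well, by a wider margin. Vehicle rats had 7.76, 8.29, 8.16, 7.90 and 7.73 in hippocampus, 5.57, 5.22, 5.43, 5.47 and 5.30 in frontal cortex and 4.73, 4.49, 4.59, 4.44 and 4.79 in striatum. No value of one region reached those of another. In the same directions, 19.2% to 24.9% of all tested probe sets had no overlap between a pair of regions. Hippocampus was higher than frontal cortex by 2.57 (standard error 0.09, 5.93-fold, adjusted p = 8.85e-25), and striatum differed from hippocampus by -3.36 (10.3-fold, adjusted p = 8.45e-30). Frontal cortex and striatum were both below the level of the filter and differed by -0.79. The probe set passed the filter through its level in hippocampus, which is also what both p-values test. All of these differences are therefore given as a description.

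**Figure D1:**
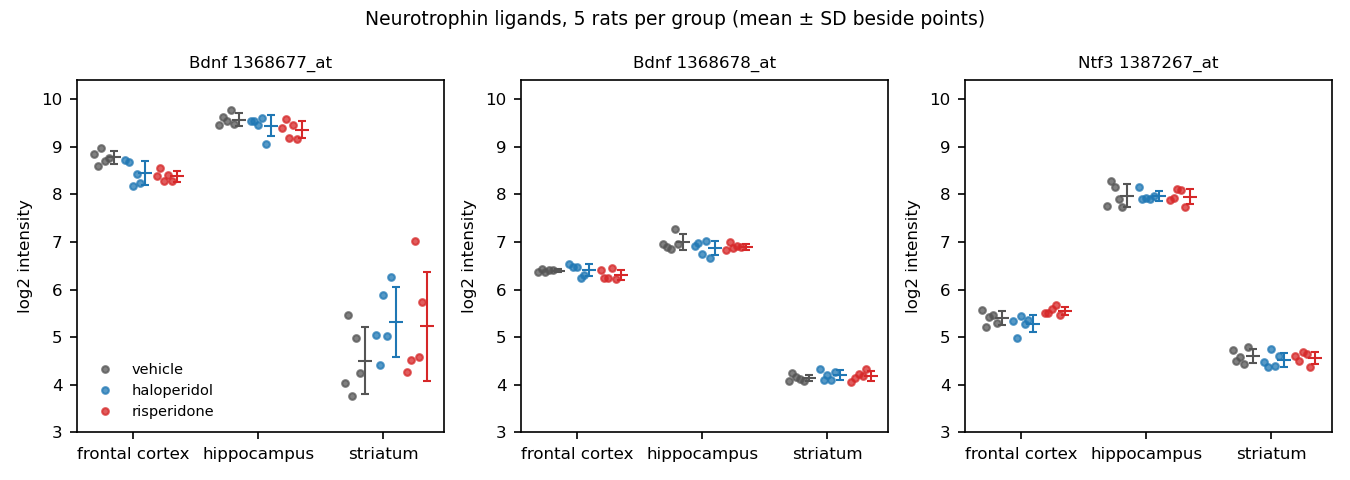
Log2 intensity of both Bdnf probe sets and of Ntf3 in frontal cortex, hippocampus and striatum, after quantile normalization across the 45 arrays. Each point is 1 rat, colored by treatment, with the mean and SD of the 5 rats of a group beside it; hippocampus is highest and striatum lowest for all 3 probe sets, and the spread is widest for Bdnf 1368677_at in striatum (3.76 to 7.02).

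The TrkB probe sets did not share 1 order of regions. Ntrk2 1368972_at was higher in frontal cortex of vehicle rats (10.34, 10.21, 10.32, 10.24 and 10.13) than in hippocampus (9.75, 9.45, 9.50, 9.56 and 9.52) and in striatum (9.37, 9.66, 9.69, 9.67 and 9.54). Frontal cortex did not overlap with either region, whereas hippocampus and striatum did overlap. Of all tested probe sets, 18.3% in hippocampus and 23.1% in striatum were lower than in frontal cortex without overlap. The difference to frontal cortex was -0.69 in hippocampus (standard error 0.07, 1.62-fold, adjusted p = 3.38e-11) and -0.66 in striatum (1.58-fold, adjusted p = 4.16e-11), and striatum and hippocampus differed by 0.03 (adjusted p = 0.704). Ntrk2 1397246_at was instead highest in hippocampus, at 10.52, 10.57, 10.41, 10.51 and 10.72, against 10.11, 10.45, 10.13, 10.07 and 10.44 in frontal cortex and 10.19, 10.21, 10.13, 10.03 and 10.42 in striatum. These groups overlapped, and hippocampus was called higher than frontal cortex (difference 0.30, adjusted p = 9.87e-04) and striatum lower than hippocampus (difference -0.35, adjusted p = 1.32e-04). With array medians set equal in place of quantiles, the difference to frontal cortex was 0.23 and fell below 1.2-fold. Ntrk2 1383135_at and 1370687_a_at were also highest in hippocampus, by differences of 0.18 and 0.07 to frontal cortex, and neither was called in any pair of regions.

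Across rats the TrkB probe sets did not all move together. Over the 15 rats of a region, 1383135_at and 1397246_at had a Pearson correlation of 0.91 in frontal cortex, 0.91 in hippocampus and 0.83 in striatum. The same measure between 1368972_at and 1397246_at was -0.30, -0.50 and 0.13. Between 1370687_a_at and 1383135_at it was 0.46, 0.08 and 0.44. These are descriptions over arrays that share a normalization, and the sources used here do not give the transcript forms that each probe set reads. Ntrk2 1370652_at, which was below the filter, varied by rat rather than by region. Risperidone replicate 2 had the lowest of the 15 values in all 3 regions, at 4.06 in frontal cortex, 4.84 in hippocampus and 4.49 in striatum on the deposited scale. Vehicle replicate 4 ranked 3, 3 and 4 from the bottom, and the other 4 vehicle rats ranked 11 or higher in each region.

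The other receptors differed little between regions. Ntrk3 was at 8.44 to 8.72 in hippocampus of vehicle rats, 8.38 to 8.59 in frontal cortex and 8.18 to 8.48 in striatum, and its largest difference, -0.24 from hippocampus to striatum (1.18-fold, adjusted p = 0.0326), missed the fold threshold. It was called without vehicle replicate 4 (difference -0.27) and with array medians set equal (-0.30). Sort1 1372728_at had means of 10.87 in hippocampus, 10.78 in striatum and 10.76 in frontal cortex, and no difference was called (adjusted p from 0.142 to 0.791). Vehicle rats were at 10.80 to 10.90 in hippocampus and 10.74 to 10.81 in frontal cortex, with an overlap at the ends of the ranges. Sort1 1371004_at likewise had no called difference (adjusted p from 0.0694 to 0.615). Ngfr, known in the adult forebrain mainly from cholinergic neurons of the basal forebrain, lay between 3.81 and 4.85 on all 45 arrays. Striatum of vehicle rats (4.26, 4.57, 4.79, 4.31 and 4.56) was above hippocampus (4.15, 4.21, 4.00, 4.21 and 3.81) without overlap, by 0.42 (adjusted p = 1.47e-04 in the fit without the filter), at a level where the array may not measure the transcript. Of all tested probe sets, 24.5% were higher in striatum than in hippocampus without overlap.

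In counts, 4 of the 9 tested probe sets differed between hippocampus and frontal cortex (3 higher and 1 lower in hippocampus), where 31.0% of all tested probe sets were called. In striatum, 3 were lower than in frontal cortex and 3 were lower than in hippocampus, against 45.5% and 46.1% of all tested probe sets. Ntf3, which passed the filter through hippocampus, is counted in all 3 comparisons. The tested Bdnf probe set is also counted in all 3. It passed the filter through hippocampus and frontal cortex and was below that level in striatum. The members' share is above this background between hippocampus and frontal cortex and below it in both striatum comparisons. With 9 probe sets these counts are a description. Without the filter, 5 of the 12 were called in each of the 3 comparisons, where the background was 27.9%, 39.4% and 40.0%. On the values as deposited, 9 were called between hippocampus and frontal cortex and 9 between striatum and hippocampus, where 53.2% and 62.5% of all tested probe sets were called and the values include the shift of the median probe set between these regions.

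**Figure D2:**
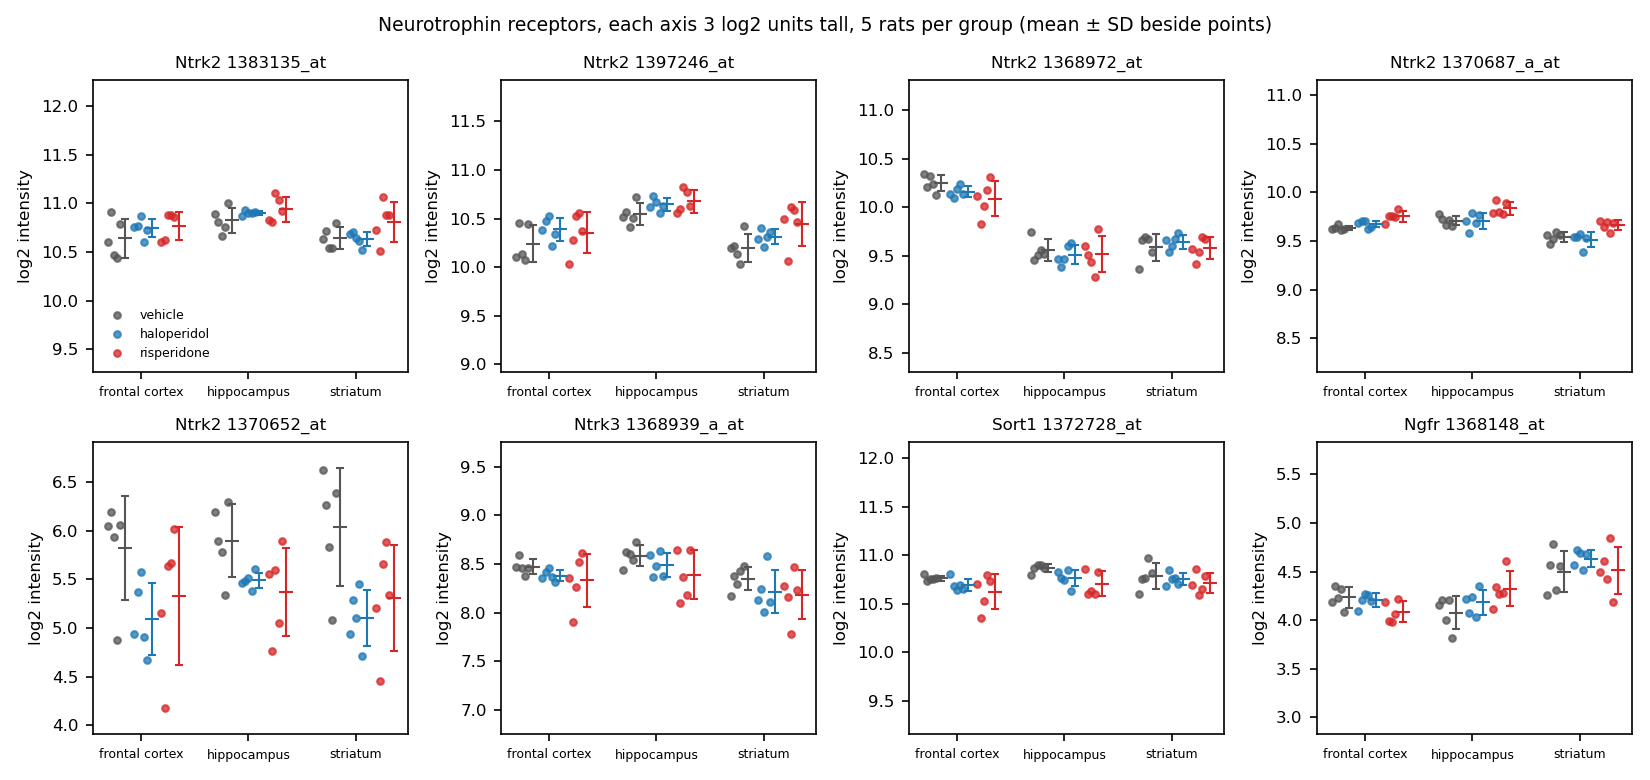
Log2 intensity (after quantile normalization across the 45 arrays) of the 5 Ntrk2 probe sets, Ntrk3, Sort1 1372728_at and Ngfr, with 1 point per rat, the mean and SD of the 5 rats of each group, and axes of equal height (3 log2 units). Ntrk2 1368972_at is higher in frontal cortex than in the other regions, Ntrk2 1397246_at is not, and Ntrk2 1370652_at has the widest spread within a group.

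Receptors related to sortilin differed between regions, Sorcs1 the most. Among further neurotrophin ligands and receptors on the list, Ntf4 was below the filter and 4 receptors of the sortilin family were tested. Sorcs1 was lower in hippocampus, with a difference of -2.19 to frontal cortex (standard error 0.10, adjusted p = 2.84e-21) and higher in striatum than in frontal cortex by 0.59 (adjusted p = 1.74e-06). It was higher in striatum than in hippocampus by 2.79 (adjusted p = 2.12e-25). In hippocampus Sorcs1 was below the level of the filter (mean 5.13), which it passed through the other regions. Sorl1, the sorting receptor SORLA, was lower in striatum (difference -1.11 to frontal cortex, adjusted p = 5.17e-14), as was Sorcs3 (difference -0.64, adjusted p = 3.12e-07), and Sorcs2, a receptor for the BDNF precursor, was higher there by 0.63 (adjusted p = 5.33e-10). Sorl1, Sorcs2 and Sorcs3 were not called between hippocampus and frontal cortex (adjusted p from 0.556 to 0.987). In striatum, 2 of the 4 were called higher and 2 lower than in frontal cortex, and likewise than in hippocampus. Of all genes, 43.7% and 44.1% were called in these comparisons, and 28.8% between hippocampus and frontal cortex.

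Neither drug gave a called change in the 6 genes. After haloperidol, 0 of 9 probe sets were called by limma in frontal cortex, hippocampus and striatum, where 0.177%, 0% and 0.339% of all tested probe sets were called, and 0, 0 and 1 had an unadjusted p under 0.05 (13.6%, 3.76% and 15.4% of all tested probe sets did). After risperidone, 0 of 9 were called in frontal cortex (3.40% of all called), hippocampus (0.113%) and striatum (3.65%), and 3, 2 and 2 had an unadjusted p under 0.05 (22.7%, 16.6% and 22.4% of all). The fit of each region on its own arrays also called none (lowest adjusted p = 0.0713), with 1, 0 and 0 unadjusted p-values under 0.05 after haloperidol and 3, 4 and 0 after risperidone. The fit without the filter called 0 of 12 in each. With 9 probe sets and backgrounds of at most 3.65%, counts of 0 are close to what the whole array showed.

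Bdnf 1368677_at was lower in frontal cortex of most treated rats. Deposited values were 8.85, 8.55, 8.95, 8.67 and 8.70 in vehicle rats, 8.67, 8.58, 8.06, 8.33 and 8.09 after haloperidol and 8.34, 8.55, 8.25, 8.34 and 8.22 after risperidone. The haloperidol values overlapped with vehicle, and the risperidone values lay below all vehicle values, the closest pair at 8.55 to 2 decimals (2.77% of tested probe sets were lower without overlap in this comparison). The difference to vehicle was -0.39 for haloperidol and -0.40 for risperidone, with a standard error of 0.34 that the fit takes from all 3 regions (adjusted p = 0.625 and 0.502; 95% confidence interval -1.09 to 0.28 for risperidone). On the frontal cortex arrays alone the standard error was 0.11 and the adjusted p 0.185 and 0.0713. Without the 2 arrays high in olfactory bulb markers and the striatum array high in pyramidal markers, the risperidone difference was -0.39. The pyramidal neuron markers in frontal cortex were at 9.36 to 9.64 in vehicle, 9.40 to 9.58 in haloperidol and 9.23 to 9.54 in risperidone rats. The second Bdnf probe set was at 6.28 to 6.37 in vehicle rats, 6.16 to 6.47 after haloperidol and 6.14 to 6.39 after risperidone, with differences of 0.02 and -0.07 (adjusted p = 0.918 and 0.661 without the filter), so that the lower values of 1368677_at were not matched by the other probe set. Both drugs were compared with the same 5 vehicle rats.

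In hippocampus, Bdnf 1368677_at was at 9.67, 9.83, 9.75, 9.95 and 9.69 in vehicle rats. Haloperidol rats had 9.78, 9.75, 9.65, 9.78 and 9.28, and risperidone rats had 9.64, 9.82, 9.37, 9.68 and 9.39. The groups overlapped, and the differences of -0.13 and -0.20 were not called (adjusted p = 1.00 and 0.805 from limma, with the standard error of 0.34 that includes striatum). On the hippocampus arrays alone the standard error was 0.10 and the adjusted p 0.827 and 0.271. Without haloperidol replicate 5 the haloperidol difference was -0.04.

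Striatal Bdnf went the other way and was uneven between rats. Vehicle rats had 3.95, 5.35, 3.70, 4.95 and 4.15, haloperidol rats 4.99, 4.34, 5.83, 4.98 and 6.14 and risperidone rats 4.27, 4.55, 6.88, 4.54 and 5.66. Each treated group had 2 rats above all vehicle rats and the rest within their range. The mean was higher by 0.84 after haloperidol (95% confidence interval 0.15 to 1.52, unadjusted p = 0.0182 and adjusted p = 0.237 from limma) and by 0.76 after risperidone (0.08 to 1.45, unadjusted p = 0.0304, adjusted p = 0.174). The group means in striatum were all below the level of the filter, which the probe set passed through hippocampus and frontal cortex. The fit takes its standard error from all 3 regions. Group SDs of 1368677_at were 0.70 to 1.09 in striatum and 0.11 to 0.28 in the other regions, so the intervals above are too narrow for striatum. On the striatum arrays alone no tested member had an unadjusted p under 0.05 after either drug. The adjusted p of Bdnf 1368677_at was 0.544 and 0.433 there. Without risperidone replicate 3 the risperidone difference was 0.34 (adjusted p = 0.649). The second Bdnf probe set stayed between 3.99 and 4.29 in all 15 striatum samples.

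The same rats were high in pyramidal neuron markers in striatum. The mean of the 7 markers (of 8 listed; Slc17a7, Neurod6, Tbr1, Neurod2, Nrgn, Emx1 and Fezf2) was 6.48 to 6.99 in vehicle rats, 6.82 to 7.83 in haloperidol rats and 6.53 to 8.38 in risperidone rats. Tbr1 was lowest of the 7 (4.39 to 5.78 on the striatum arrays), and Nrgn, which striatal neurons also express, was highest (12.30 to 12.66). Risperidone replicate 3 had the highest Bdnf and the highest marker mean (8.38), followed for both measures by haloperidol replicate 5 (7.83), haloperidol replicate 3 (7.67) and risperidone replicate 5 (7.46). Slc17a7, the vesicular glutamate transporter of cortical projection neurons, ran from 6.27 to 10.80 across the striatum arrays. Over the 15 rats, Bdnf and the marker mean had a Pearson r of 0.96 and a Spearman rho of 0.96 in striatum (permutation p = 1e-05 for both, the smallest that 100000 resamples can give, adjusted p = 3e-05 over 6 tests of 3 relations), and r was 0.91 without the 2 rats farthest from the median of the markers. In frontal cortex r was 0.49 and rho 0.53 (permutation p = 0.0675 and 0.0430, adjusted p = 0.101 and 0.0860; r = 0.45 without the 2 farthest rats), and in hippocampus r was 0.39 and rho 0.42 (permutation p = 0.147 and 0.123, both adjusted to 0.147; r = 0.15 without the 2 farthest rats). Groups of 5 are too few for a correlation within a treatment. The part of the markers in the drug difference was not tested.

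**Figure D3:**
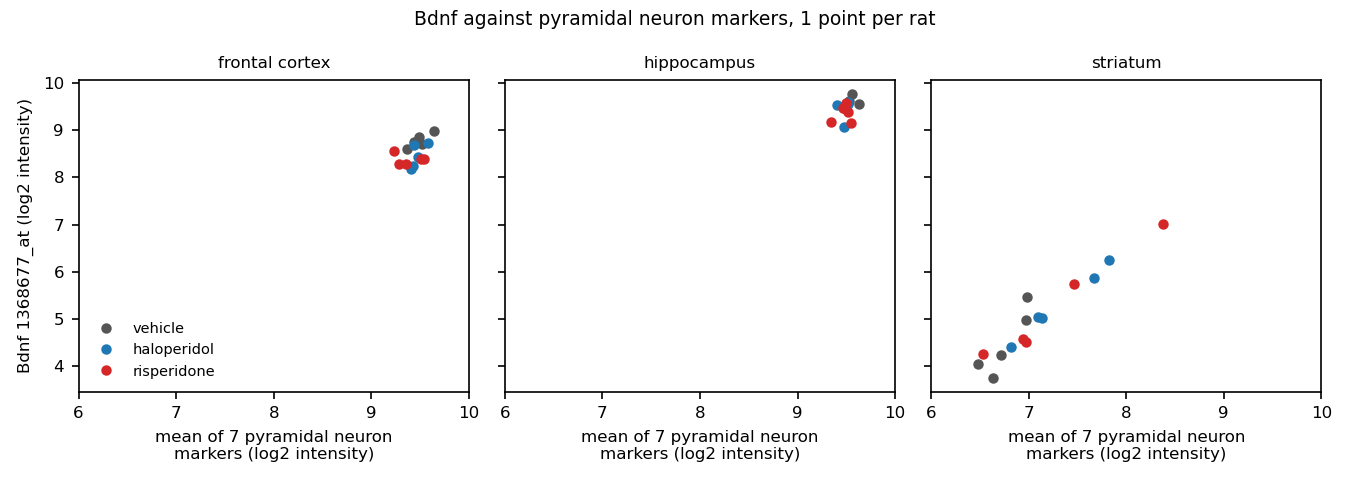
Bdnf 1368677_at (vertical axis, log2 intensity) against the mean of 7 pyramidal neuron markers (horizontal axis, log2 intensity) in each region, 1 point per rat, colored by treatment. In striatum the points lie along a line (r = 0.96) with risperidone replicate 3 at its upper end (7.02 for Bdnf and 8.38 for the markers), and in frontal cortex and hippocampus they stay within 9.23 to 9.64 of the marker scale.

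Ntf3 had small differences to vehicle. In hippocampus, where it was highest, deposited values were 7.98, 8.49, 8.36, 8.09 and 7.97 in vehicle rats, 8.37, 8.09, 8.11, 8.07 and 8.18 after haloperidol and 8.13, 8.15, 8.29, 8.31 and 7.95 after risperidone. These groups overlapped, with differences of -0.02 (95% confidence interval -0.21 to 0.18) and -0.01 (-0.21 to 0.19). In frontal cortex Ntf3 was 0.17 higher after risperidone than after vehicle (unadjusted p = 0.0939 from limma).

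Among the TrkB probe sets, 1370687_a_at was slightly higher after risperidone in each region. In hippocampus, vehicle rats had 9.99, 9.94, 9.86, 9.91 and 9.87 and risperidone rats 10.02, 10.16, 9.98, 9.99 and 10.12, which overlapped at 1 vehicle rat. The difference was 0.14 (standard error 0.04, 95% confidence interval 0.05 to 0.23, unadjusted p = 0.00251, adjusted p = 0.113), which is below 1.2-fold. It was 0.10 in frontal cortex (adjusted p = 0.186) and 0.07 in striatum (unadjusted p = 0.113). Ntrk2 1368972_at differed by -0.18 in frontal cortex after risperidone (adjusted p = 0.165). Ntrk2 1397246_at was 0.20 higher in striatum after risperidone (adjusted p = 0.168), with values of 10.29, 9.87, 10.38, 10.44 and 10.31 against 10.04, 10.07, 10.01, 9.88 and 10.26 in vehicle rats. Risperidone replicate 2 lay apart from the other 4 risperidone rats, and without it the difference was 0.30 and was called (adjusted p = 0.0332), the single called drug change of a member in any alternative. The 3 probe sets thus gave differences of both signs for 1 gene, none of them called on all rats. In striatum the mean of 8 astrocyte markers was 10.46 to 10.60 in vehicle and 10.57 to 10.96 in risperidone rats. That of 7 oligodendrocyte markers was 11.67 to 11.91 and 11.61 to 12.30. The part of these markers in the difference of 1397246_at was not tested.

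Ntrk2 1370652_at was lower in treated rats on average, at an intensity below the filter. Its deposited values in striatum were 6.55, 6.18, 5.72, 5.03 and 6.31 in vehicle rats, 4.89, 5.21, 5.10, 5.39 and 4.66 after haloperidol and 5.18, 4.49, 5.62, 5.79 and 5.27 after risperidone. Vehicle replicate 4 lay among the treated rats, and vehicle replicate 3 was below the highest risperidone rat. In the fit without the filter the difference was -0.91 after haloperidol (standard error 0.26, unadjusted p = 0.00135, adjusted p = 0.125) and -0.69 after risperidone (adjusted p = 0.129). In frontal cortex it was -0.68 and -0.48, and in hippocampus -0.42 and -0.56, with adjusted p-values from 0.241 to 1.00. The 3 regions come from the same rats and are not separate evidence.

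Ntrk3 and Sort1 1372728_at had negative differences in all 6 drug comparisons, and none was called. The 6 share their vehicle rats and take the regions from the same animals, so the signs are not separate evidence. Ntrk3 differed by -0.10 to -0.21. Without risperidone replicate 2 its risperidone difference was -0.04 in frontal cortex and -0.12 in hippocampus, and without risperidone replicate 3 it was -0.10 in striatum. Sort1 1372728_at differed by -0.16 after risperidone in frontal cortex (10.66, 10.38, 10.52, 10.75 and 10.69 against 10.81, 10.72, 10.75, 10.75 and 10.75 in vehicle rats, adjusted p = 0.153) and by -0.14 in hippocampus (adjusted p = 0.298). The frontal cortex arrays of risperidone replicates 2 and 5 were those high in olfactory bulb markers, and without risperidone replicate 2 the difference in frontal cortex was -0.10. Sort1 1371004_at had differences of -0.04 to 0.16. Ngfr had differences of -0.12 to 0.25 in the fit without the filter, with the smallest p in hippocampus after risperidone (adjusted p = 0.283 from limma).

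**Figure D4:**
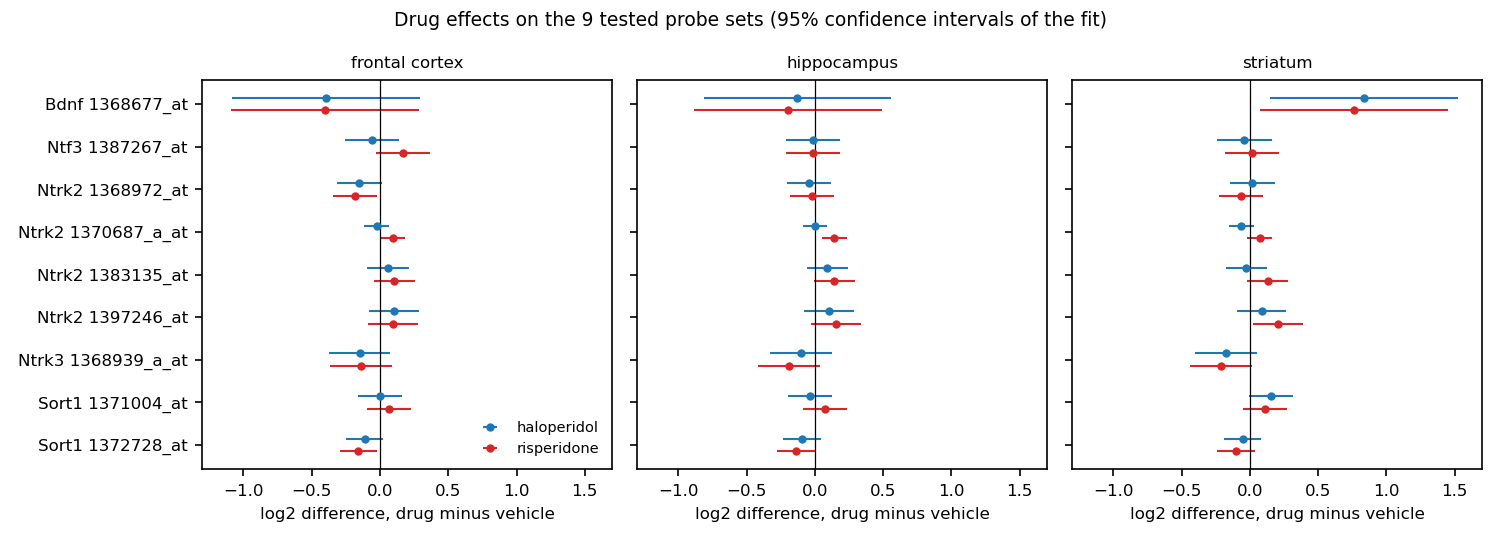
Difference to vehicle on the log2 scale, with 95% confidence intervals from the limma fit, for the 9 tested probe sets after haloperidol (blue) and risperidone (red) in each region. Intervals for the receptors and Ntf3 lie between -0.44 and 0.39, those of Bdnf are wider, and no difference was called.

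Risperidone and haloperidol rats differed in 0 of 9 probe sets in frontal cortex (background 0.768%), hippocampus (0%) and striatum (0.0161%), with 2, 1 and 2 unadjusted p-values under 0.05 from limma (20.1%, 5.91% and 4.47% of all). On each region's own arrays 0 were called too, and 2, 1 and 1 had an unadjusted p under 0.05. Ntrk2 1370687_a_at was higher after risperidone than after haloperidol by 0.12 in frontal cortex, 0.14 in hippocampus and 0.13 in striatum. In striatum all risperidone values (9.50, 9.43, 9.45, 9.42 and 9.51) were above all haloperidol values (9.37, 9.39, 9.33, 9.19 and 9.36), as in 0.253% of all tested probe sets. The adjusted p-values were 0.118, 0.742 and 0.707.

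The effect of a drug was also compared between regions. For haloperidol, 0 of 9 differences were called between hippocampus and frontal cortex (0% of all tested), striatum and frontal cortex (0.0269%) and striatum and hippocampus (0%). For risperidone the counts were 0 of 9 as well, where 1.32%, 2.94% and 1.66% of all were called. In limma, Bdnf 1368677_at was the single member with an unadjusted p under 0.05 in 4 of these 6 comparisons, and no member had one in the other 2. Its change was higher in striatum than in frontal cortex by 1.23 after haloperidol (adjusted p = 0.478) and by 1.17 after risperidone (adjusted p = 0.103), and higher in striatum than in hippocampus by 0.96 after each drug (adjusted p = 0.630 and 0.204). These p-values use a standard error taken from all regions, which is too small for the spread of Bdnf in striatum. Without risperidone replicate 3, the values after risperidone were 0.72 for striatum to frontal cortex and 0.48 for striatum to hippocampus. The former was 0.71 without the 3 arrays high in markers of a neighboring tissue and 0.74 when the frontal cortex array of risperidone replicate 1 was left out too.

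Several genes that are known to be induced by BDNF and by neuronal activity fell after risperidone. Of 16 listed genes, 12 were tested, and after risperidone in frontal cortex 8 were called lower and none higher, where 1.37% of 10248 genes were called lower. The list was chosen with earlier results of these data known, so its counts here and in the other regions are a description. Their median difference was -0.43, and that of all genes was 0.03. The zinc finger protein Egr2 fell by 2.14 (adjusted p = 1.88e-05 with a standard error of 0.28) and Fos, a subunit of AP-1, fell by 1.89 (adjusted p = 9.01e-05). Arc, which controls AMPA receptor uptake at synapses, fell by 1.16 (adjusted p = 5.84e-05), and Egr1 fell by 0.86 (adjusted p = 5.45e-06). Dusp6, a phosphatase of ERK, fell by 0.71 (adjusted p = 9.49e-04) and Homer1, a postsynaptic scaffold, fell by 0.45 (adjusted p = 0.00184). Klf10, a transcription factor, fell by 0.41 (adjusted p = 0.0219) and Vgf, a precursor of secreted neuropeptides, fell by 0.38 (adjusted p = 0.0327). Npy, Sst, Slc6a17 and Tac1 were not called, and Tac1 was 0.49 higher (unadjusted p = 0.0322 from limma). Without the 3 arrays high in markers of a neighboring tissue, 6 of the 8 were called, and Klf10 and Vgf were not, and the count was also 6 without the frontal cortex array of risperidone replicate 1 as well. Calls of Klf10 were also lost on the frontal cortex arrays alone and without vehicle replicate 3, 4 or 5, and calls of Vgf without vehicle replicate 1, 3, 4 or 5 or risperidone replicate 2 or 3.

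In striatum after risperidone, 5 of the 12 genes were called lower and none higher (2.00% of all genes were called lower). Egr2 fell by 2.30 (adjusted p = 2.45e-06), Egr1 by 0.64 (adjusted p = 2.15e-04), Dusp6 by 0.46 (adjusted p = 0.0254) and Homer1 by 0.31 (adjusted p = 0.0226). Tac1, the substance P precursor of striatal projection neurons, fell by 0.76 (adjusted p = 0.0388). The count was 3 without the 3 arrays high in markers of a neighboring tissue, 3 without risperidone replicate 3 and 2 without vehicle replicate 3, 4 or 5. On the striatum arrays alone it was 2. Egr1 and Egr2 were called in every alternative that tested them. Homer1 lost its call without vehicle replicate 3, 4 or 5 or risperidone replicate 3 (difference -0.20 without the last), Dusp6 without vehicle replicate 1, 3, 4 or 5 or risperidone replicate 2 or 4, and Tac1 without vehicle replicate 2, 3, 4 or 5 or risperidone replicate 3 or 5. After haloperidol, Arc in frontal cortex fell by 1.30 (adjusted p = 3.32e-05) and Egr2 in striatum fell by 1.39 (adjusted p = 0.0157), 1 of 12 in each region, where 0.0976% and 0.215% of all genes fell. On the arrays of a region alone neither was called, and the haloperidol count in frontal cortex was 4 without haloperidol replicate 1, 3 without haloperidol replicate 2, 4 without the 3 arrays, 5 without the array of risperidone replicate 1 too and 2 without vehicle replicate 1 or 2 or risperidone replicate 2, 3 or 4. The Egr2 call in striatum was lost without vehicle replicate 2 or 5 and without haloperidol replicate 3, 4 or 5. The median difference of the 12 in frontal cortex after haloperidol was -0.30 (all genes -0.03), and Slc6a17 alone was positive (0.01). Uncalled there were Fos (-1.20) and Egr1 (-0.45, adjusted p = 0.0578 from limma for both), Dusp6 (-0.49, adjusted p = 0.0848) and Egr2 (-1.09, adjusted p = 0.0904). The list was not compared between the drugs. In hippocampus limma called none of the 12 after either drug. Of the 12, 2 after haloperidol and 5 after risperidone had an unadjusted p under 0.05, where 3.76% and 16.6% of all tested probe sets did. After risperidone Egr2 differed by -1.15 (adjusted p = 0.0693), Fos by -1.01 and Egr1 by -0.38 (adjusted p = 0.0915 for both). Tac1, Sst, Vgf and Klf10 had positive differences there, none with an unadjusted p under 0.05. The risperidone count there was 3 without risperidone replicate 1, 1 without haloperidol replicate 2 and 2 without the 3 arrays high in markers of a neighboring tissue. These genes respond to several stimuli besides BDNF.

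**Figure D5:**
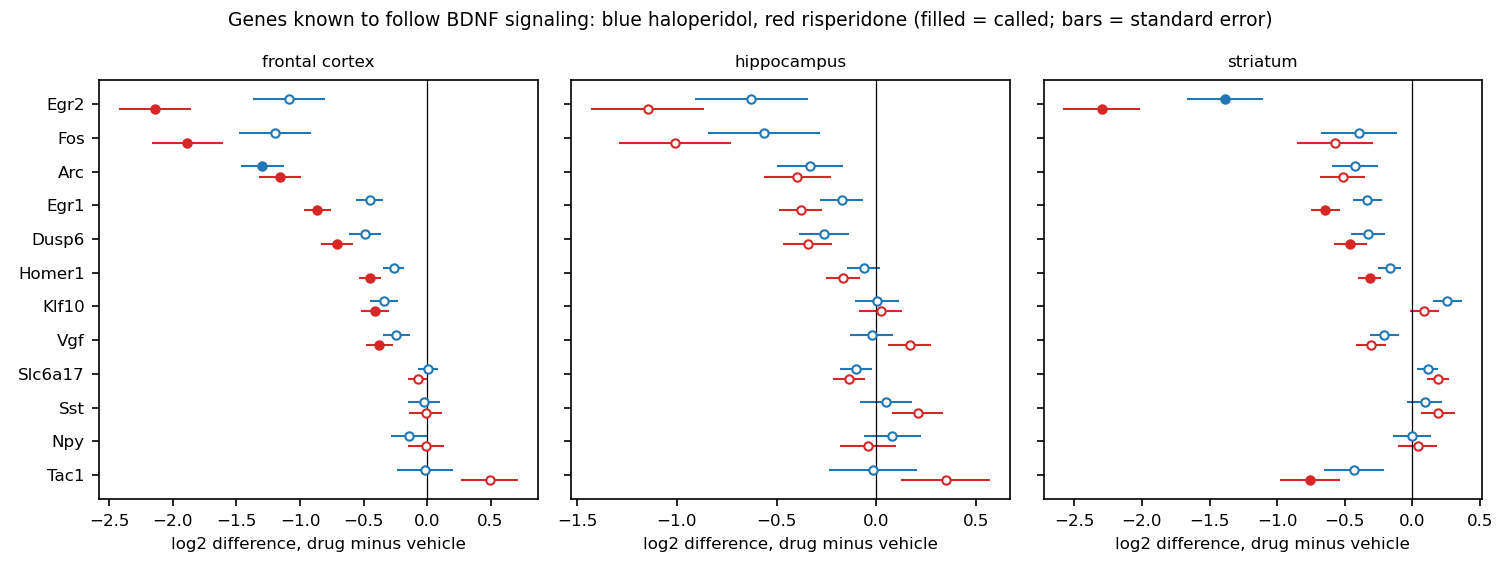
Difference to vehicle on the log2 scale for the 12 tested genes that are known to follow BDNF signaling, after haloperidol (blue) and risperidone (red) in each region. Filled points were called and bars are standard errors; 8 genes are filled for risperidone in frontal cortex and 5 in striatum, all of them lower than in vehicle rats.

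Other steps of the pathway had few calls. Over all genes with 1 probe set each, 0.146% were called after haloperidol in frontal cortex, 0% in hippocampus and 0.263% in striatum, and 3.30%, 0.117% and 3.00% after risperidone. Of 12 tested genes of precursor processing and release, 1 rose and 1 fell in striatum after risperidone. Pcsk5, a proprotein convertase, rose by 0.40 (adjusted p = 0.0212) and Chga, a granin of dense-core vesicles, fell by 0.42 (adjusted p = 0.00166). Pcsk5 was below the level of the filter in striatum (means 5.07 in vehicle and 5.48 in risperidone rats) and passed it through the other regions. Its call was lost without vehicle replicate 1, 3 or 5 or risperidone replicate 3, on the striatum arrays alone and without the 3 arrays high in markers of a neighboring tissue (difference 0.31), whereas Chga was called with any 1 rat left out, and on the striatum arrays alone its adjusted p was 0.114. In striatum Sorcs1 fell by 0.39 after risperidone (adjusted p = 0.0340), and leaving out vehicle replicate 1, 2, 3 or 5 or risperidone replicate 1 or 3 ended this call, as did quantile normalization, the striatum arrays alone and leaving out the 3 arrays (difference -0.33). Sorl1 was not called, with differences after risperidone of -0.28 in hippocampus (adjusted p = 0.149 from limma) and -0.26 in frontal cortex (adjusted p = 0.0862). Without the 3 or 4 arrays high in markers of a neighboring tissue its hippocampal difference, still -0.28, was called. Of 23 tested Trk adaptors and effectors, Shc3, an adaptor of Trk receptors in neurons, in frontal cortex after risperidone fell by 0.35 (adjusted p = 0.0182; lost without vehicle replicate 1, 2 or 4 or risperidone replicate 2 and without the 3 arrays). Nedd4, a ubiquitin ligase, differed by -0.19 in striatum, which missed the fold threshold (adjusted p = 0.0108). None of 17 tested p75NTR partners was called. Bex3, a p75NTR-associated protein, was 0.17 higher in frontal cortex after risperidone (adjusted p = 0.0371), below the fold threshold, and Ripk2, a kinase recruited to p75NTR, differed by -0.27 there after haloperidol (adjusted p = 0.180). Of 21 tested regulators of Bdnf transcription, none was called after either drug by limma. The smallest p-values were those of Nfatc4, a calcium-dependent transcription factor, after haloperidol in frontal cortex (0.23 higher, adjusted p = 0.178) and Hdac1, a histone deacetylase, after risperidone there (0.31 higher, adjusted p = 0.0589, and 0.19 higher without risperidone replicate 2).

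The genes most alike to each member were taken as those with the highest mean of the Pearson correlations within the 3 regions, each over 15 rats. For Bdnf 1368677_at they were Neurod6, a transcription factor of pyramidal neurons and 1 of the 7 markers (mean r 0.76, and 0.94 in striatum), Ly6e (0.74) and Gng2 (0.73). For Ntrk3 they were Abi2 (0.91), Arf3 (0.91) and Mast3 (0.88). Sort1 1372728_at was most like Jph3 (0.80), Grin2b (0.79) and Atp2a2 (0.79), and Ntrk2 1383135_at was most like LOC100911992 (0.84), Adgrg1 (0.81) and Rpl35 (0.81). Ntf3 had no gene above 0.52 (Tbp), and Ngfr none above 0.61 (Asap1). These correlations are picked from all tested probe sets, over arrays that share treatment, tissue composition and normalization.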

How the data were processed

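RNA of 45 tissue samples was measured on Affymetrix rat genome arrays. Per the labels, the authors processed the arrays with RMA in R 2.7.2, which corrects background, normalizes between arrays and summarizes probes. The deposited intensity values are linear, and log2 of them was taken. Arrays have no read depth, so their number limits the precision.

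Probe sets were named from the platform annotation, and 57 control probe sets were left out. limma 3.58.1 (R 4.3.3) fitted 9 group means, the rat being a random block with a consensus correlation of 0.226. Region comparisons used vehicle rats and quantile-normalized values. Adjustment was by Benjamini-Hochberg within each comparison. Lists took 1 probe set per gene. Named genes are all members, called list genes, those with the smallest p, and the 3 most alike to a member.

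The members and lists were chosen with earlier results of these data known. The fit was tested on simulated data for risperidone against vehicle in frontal cortex (18609 probe sets): it recovered 91 of 100 changes of 1.5-fold and 99 of 100 of 2-fold, with 7 false calls. The simulation gave each probe set the same spread in all regions. For Bdnf 1368677_at, whose group SD ran from 0.11 in hippocampus to 1.09 in striatum, it does not show which changes could be called. Of 30 alternative settings, 2 (leaving out 3 or 4 arrays high in markers of a neighboring tissue) were chosen after seeing the data.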

Additional observations from a re-analysis of the deposited data

Results flagged for a closer look

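In 3 of 108 groups of 5 rats (12 probe sets, 3 regions, 3 treatments), 1 rat lay far from the other 4, with a gap to the nearest that took most of the group's range on the deposited log2 scale (Dixon's criterion). Chance gives such a gap in about 1 of 20 groups. Bdnf 1368677_at in hippocampus was at 9.28 in haloperidol replicate 5, against 9.65 to 9.78 in the others. Ntrk2 1370652_at in frontal cortex was at 4.79 in vehicle replicate 4, against 5.86 to 6.13. Ntrk2 1397246_at in striatum was at 9.87 in risperidone replicate 2, against 10.29 to 10.44.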

How the results depend on the processing

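No neurotrophin probe set was called for a drug, between drugs or between regions for a drug's effect in 398 of 399 alternatives over 15 comparisons; the exception was risperidone in striatum, with 0 to 1 called when a rat was left out. Leaving out each rat gave 3 to 4 called between hippocampus and frontal cortex, 3 to 3 between striatum and frontal cortex and 3 to 4 between striatum and hippocampus. On the values as deposited, 9 were called between hippocampus and frontal cortex and 9 between striatum and hippocampus. With no filter on the mean 5 were called between striatum and frontal cortex and 5 between striatum and hippocampus, where 6 were called with no fold minimum, fewer limits on a call being set. Of the genes known to follow BDNF signaling, 6 to 8 were called after risperidone in frontal cortex and 2 to 6 in striatum when a rat was left out. In striatum 2 were called on its own arrays (fewer arrays) and 3 without 3 or 4 arrays high in markers of a neighboring tissue (fewer samples). The replicate numbers of the labels do not pair the rats (correlations of deviations from -0.38 to 0.55 between treatments). With the number as a replicate block, the counts of neurotrophin probe sets were 4, 3 and 3 between regions and 0 elsewhere. Of the list genes, 6 were then called in striatum and 1 in hippocampus after risperidone, and 2 in frontal cortex after haloperidol. No called drug difference and no called region difference of a member changed sign. Uncalled drug differences near 0 did. With each rat left out in turn, Ntf3 after haloperidol ran between -0.111 and 0.00507 in striatum, between -0.0670 and 0.0626 in hippocampus and between -0.104 and 0.0208 in frontal cortex, and after risperidone between -0.0656 and 0.0637 in hippocampus, and -0.0199 and 0.0728 in striatum. Ntrk2 1368972_at likewise ran from -0.0755 to 0.00497 after haloperidol in hippocampus, from -0.0353 to 0.0477 in striatum and from -0.0875 to 0.0393 after risperidone in hippocampus. After haloperidol, Ntrk2 1370687_a_at ran from -0.0188 to 0.0278 in hippocampus, Ntrk2 1383135_at from -0.0548 to 0.00903 in striatum, and Sort1 1371004_at from -0.0262 to 0.0362 in frontal cortex and from -0.0631 to 0.00244 in hippocampus. Quantile normalization turned Ntrk2 1370687_a_at after haloperidol in frontal cortex to 0.0397 and Ntf3 after risperidone in striatum to -0.0487, which was -0.0147 and -0.0162 without 3 and 4 arrays. Equal array medians turned Sort1 1371004_at after haloperidol in frontal cortex to -0.000486 and Ntrk2 1370687_a_at in hippocampus to 0.00810. Named values of the probe sets below the filter were fitted once, without it, and not recomputed.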
